A study of Mus musculus with 12 samples.

Results

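The nuclear genes for the subunits of oxidative phosphorylation were followed in mouse kidney RNA. Members were all genes whose symbol begins with Ndufa, Ndufb, Ndufc, Ndufs, Ndufv, Uqcr, Cox4i, Cox5, Cox6, Cox7, Cox8 or Atp5, together with Sdha, Sdhb, Sdhc, Sdhd and Cyc1. Assembly factors named Ndufaf and pseudogenes were left out, and a mean of at least 1 FPKM over the 12 libraries was required. This gave 86 of the 19034 genes in the table: 40 named for complex I, 4 for complex II, 9 for complex III, 16 for complex IV and 17 for complex V. All 86 were among the 12931 genes tested. FPKM are fragments per kilobase of mRNA, scaled to the fragments of the library and here summed over the mRNAs of a gene, so that levels can be set side by side between genes.

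Kidneys of C57BL/6 mice and of MRL/MpJ-Fas<lpr>/J mice (MRL/lpr below) were sampled at 8 and at 17 weeks of age, with 3 libraries in each of the 4 groups. In MRL/lpr mice the gene of the death receptor Fas is disrupted in the germline, and the strain is used as a model of lupus with kidney inflammation. MRL mice with intact Fas were not among the samples, so the mutation, the disease and the rest of the strain background cannot be told apart. No treatment and no sex is named, and separate animals for the 3 libraries of a group are not stated. The p values therefore measure only the spread between these libraries, which may be technical.

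Oxidative phosphorylation takes place in the inner mitochondrial membrane. Complex I oxidises NADH and complex II oxidises succinate, and both pass electrons to ubiquinone. Complex III hands them on to cytochrome c and complex IV to oxygen, while complexes I, III and IV pump protons whose return through complex V, the ATP synthase, makes ATP. Most subunits are encoded in the nucleus, whereas some core subunits of complexes I, III, IV and V are encoded by mitochondrial DNA and were not analysed here. In the kidney this machinery is abundant in the proximal tubule and the thick ascending limb, which reabsorb solutes at a high cost in ATP.

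Many nuclear subunit genes are known targets of the transcription factor NRF1, and promoter windows of 3 members are shown because these genes stand out in the strain comparison below. Each window is the 250 bases before the annotated start, taken from RefSeq on GRCm38.p6, which comes from C57BL/6J and not from MRL. Cox6b2 lies at chr7:4753095-4753344 on the minus strand, Cox6a1 at chr5:115348959-115349208 on the minus strand and Ndufc2 at chr7:97399753-97400002 on the plus strand. Capitals mark the NRF1 motif, which was searched on both strands as GCGCA, any base and GCGC.
Cox6b2: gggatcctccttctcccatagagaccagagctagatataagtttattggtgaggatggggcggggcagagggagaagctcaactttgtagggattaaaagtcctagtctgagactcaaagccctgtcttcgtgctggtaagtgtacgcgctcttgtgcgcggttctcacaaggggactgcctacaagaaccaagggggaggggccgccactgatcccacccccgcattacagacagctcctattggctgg
Cox6a1: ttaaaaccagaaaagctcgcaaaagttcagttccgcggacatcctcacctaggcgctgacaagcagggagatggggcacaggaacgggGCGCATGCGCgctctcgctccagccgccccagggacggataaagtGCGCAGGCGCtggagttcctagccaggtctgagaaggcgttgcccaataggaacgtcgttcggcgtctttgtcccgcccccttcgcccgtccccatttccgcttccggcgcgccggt
Ndufc2: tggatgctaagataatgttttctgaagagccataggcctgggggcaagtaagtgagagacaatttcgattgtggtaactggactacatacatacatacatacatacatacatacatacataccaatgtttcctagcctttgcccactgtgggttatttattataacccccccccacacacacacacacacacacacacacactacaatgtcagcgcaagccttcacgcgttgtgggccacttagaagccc
The Cox6a1 window holds the motif at 2 places, and the windows of Cox6b2 and Ndufc2 do not hold these letters. Promoter entries were found for 69 members, with 74 windows. The NRF1 letters stood in 14 of these windows (18.9%), against 7.43% of the windows of all genes tested and 3.74% of all promoters in the table. The shares for CCGGAAGT (GABPA) were 4.05%, 5.47% and 2.88%, for TCAAGGTCA (ERRA) 1.35%, 0.303% and 0.387%, and for AAGATGGCG (YY1) 1.35%, 1.07% and 0.606%, in the same order. A match describes the letters only.

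The members were among the more abundant kidney mRNAs. Their summed FPKM lay between 27050 and 35072 per library, which was 5.30% to 6.64% of all FPKM. Atp5b, the catalytic beta subunit of the ATP synthase, had the highest mean at 1778 FPKM. It was followed by Cox4i1, the common form of a nuclear subunit of complex IV, at 1489 FPKM and Atp5g3, one of 3 genes for the same c-ring protein, at 1218 FPKM. The median of the members' means was 196 FPKM in complex I, 319 in complex II, 328 in complex III, 401 in complex IV and 503 in complex V. The lowest members were Cox6a2 at 1.21, Ndufb4c at 1.26 and Cox4i2 at 1.49 FPKM, and the 1 measured gene that fell below the minimum was Ndufb4b at 0.0083 FPKM.

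In the data as a whole, 1 library stood apart. C57BL/6 17 weeks replicate 2 lay at -55.29 on the second principal component, and the other 11 libraries between -11.85 and 26.84. Its 7 macrophage markers summed to 1328 FPKM, against 150 and 156 in the other 2 libraries of its group, and its 5 tubular injury markers to 4992 against 1322 and 1390. Its 8 proximal tubule markers summed to 2633 FPKM, against 3974 and 4208. Fas was between 5.88 and 9.95 FPKM in C57BL/6 and between 4.67 and 7.73 in MRL/lpr libraries, so these ranges overlap and gene totals do not check the lpr label. Uromodulin (Umod), a thick ascending limb marker, was between 1883 and 2700 FPKM in all 12 libraries.

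The members followed that library closely. It was the lowest of the 12 libraries for 51 of the 86 members, whereas it was the lowest for 13.3% of all genes tested. At the other end, C57BL/6 8 weeks replicate 1 was the highest library for 38 members, against 5.95% of all genes. In bulk RNA, fewer cells of a type and less of an mRNA per cell cannot be told apart, and the part of the marker differences in the member values was not tested. Counts of member calls below are given with and without C57BL/6 17 weeks replicate 2, and so is a single member where its call or size changes. The fit without it leaves 2 libraries in C57BL/6 at 17 weeks. That library was singled out after the data were seen, so adjusted p values from this fit are to be read with that limit.

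The summed level of all members was 33626 ± 1497 FPKM (SD, n = 3) in C57BL/6 at 8 weeks, 30939 ± 3400 in C57BL/6 at 17 weeks, 30765 ± 471 in MRL/lpr at 8 weeks and 30848 ± 1480 in MRL/lpr at 17 weeks. At 8 weeks the 3 C57BL/6 libraries (35072, 33724 and 32083) all lay above the 3 MRL/lpr libraries (31259, 30714 and 30321). At 17 weeks the groups overlapped, with 32422, 27050 and 33345 in C57BL/6 and 32486, 30454 and 29605 in MRL/lpr. Complexes I, II, IV and V showed the separation at 8 weeks, while complex III overlapped between 3250 and 3575 in C57BL/6 and between 3276 and 3468 in MRL/lpr. Complex II, the smallest, was also apart at 17 weeks for all but 1 library: its sums were 1282, 947 and 1291 FPKM in C57BL/6 and 1093, 1136 and 1140 in MRL/lpr.

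**Figure D1:**
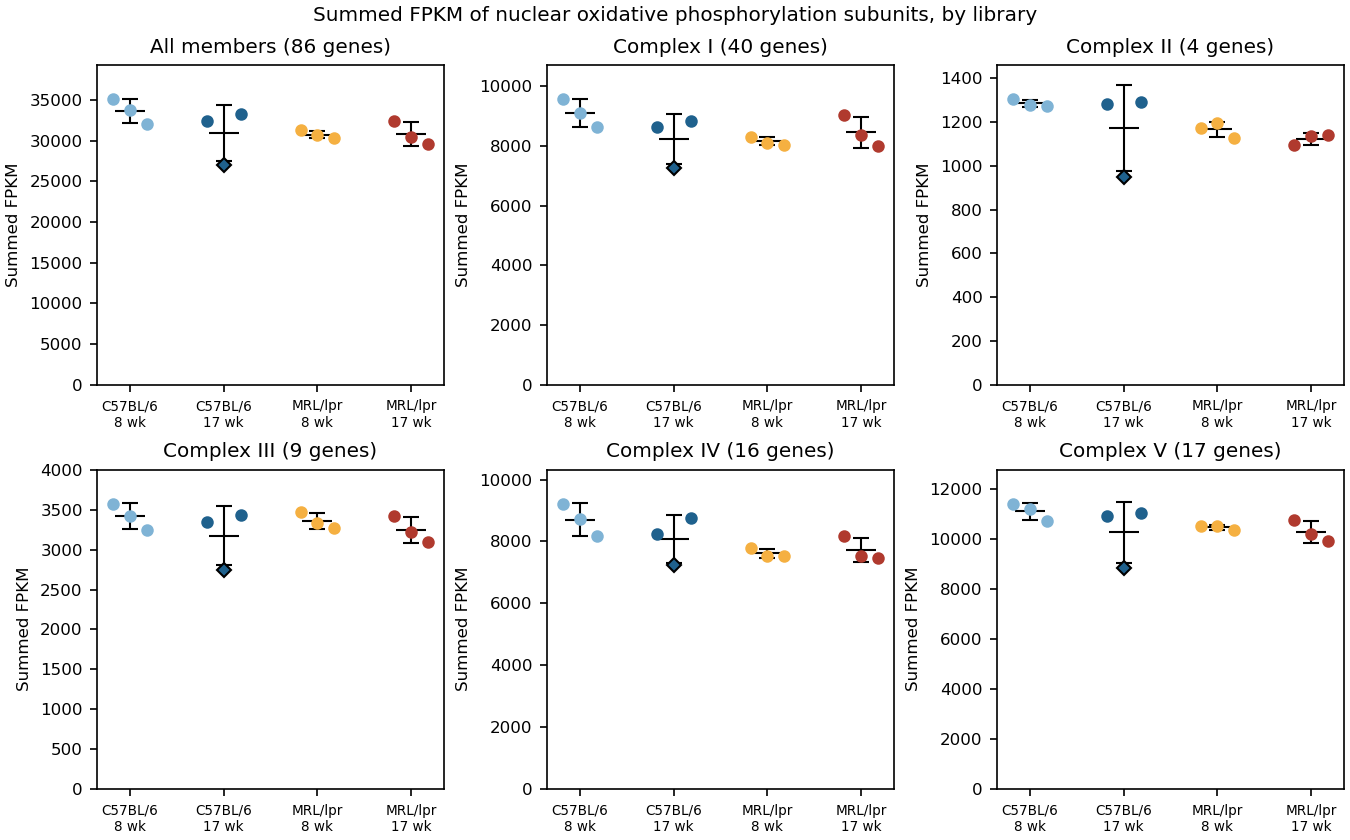
Summed FPKM of the members of all complexes together and of each complex in every library (vertical axes, starting at 0), by group (horizontal axes), with the mean and SD of 3 libraries as bars and C57BL/6 17 weeks replicate 2 as an outlined diamond. The diamond is the lowest point in every panel, at 27050 FPKM for all members and 947 FPKM for complex II, and at 8 weeks the C57BL/6 points lie above the MRL/lpr points except in complex III.

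At 8 weeks, 8 members were lower and 1 was higher in MRL/lpr than in C57BL/6 kidneys, at an adjusted p under 0.05 by limma over all genes tested. That is 9 of 86, while 12.8% of all genes passed in this comparison (5.88% higher and 6.96% lower). The lower members were Ndufa3 and Ndufc2 of complex I, Cox7c, Cox5b, Cox5a and Cox6a1 of complex IV, and Atp5e and Atp5mpl of complex V. The higher one was Cox6b2, of complex IV. The median log2 difference of all members was -0.13, with 68 members below 0 and 18 above, against a median of -0.012 over all genes. By complex the median was -0.16 in I, -0.14 in II, 0.005 in III, -0.12 in IV and -0.11 in V. Without C57BL/6 17 weeks replicate 2, which enters this comparison only through the shared estimate of the spread, 22 members were lower and 1 higher, and 23.3% of all genes passed. Of all genes, 10.9% were then higher and 12.4% lower. The 22 comprised 12 members of complex I, 2 of complex II, 5 of complex IV and 3 of complex V.

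At 17 weeks, 5 members were lower and 1 was higher, with 15.1% of all genes passing (7.68% higher and 7.44% lower). The lower members were Ndufc2, Ndufb2 and Ndufb11 of complex I, Sdhc of complex II and Cox7c of complex IV, and Cox6b2 was again the higher one. Median-of-ratios scaling between libraries left Cox6b2 as the 1 call, with 0 lower members, while 16.04% of all genes passed. The median difference of all members was 0.0088, against -0.0033 over all genes. Without C57BL/6 17 weeks replicate 2, 16 members were lower and 2 higher, with 27.2% of all genes passing (17.6% higher and 9.59% lower). The members' median was then -0.075, against 0.044 over all genes. All 6 calls at 17 weeks, and all 9 at 8 weeks, were among those made without that library.

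**Figure D2:**
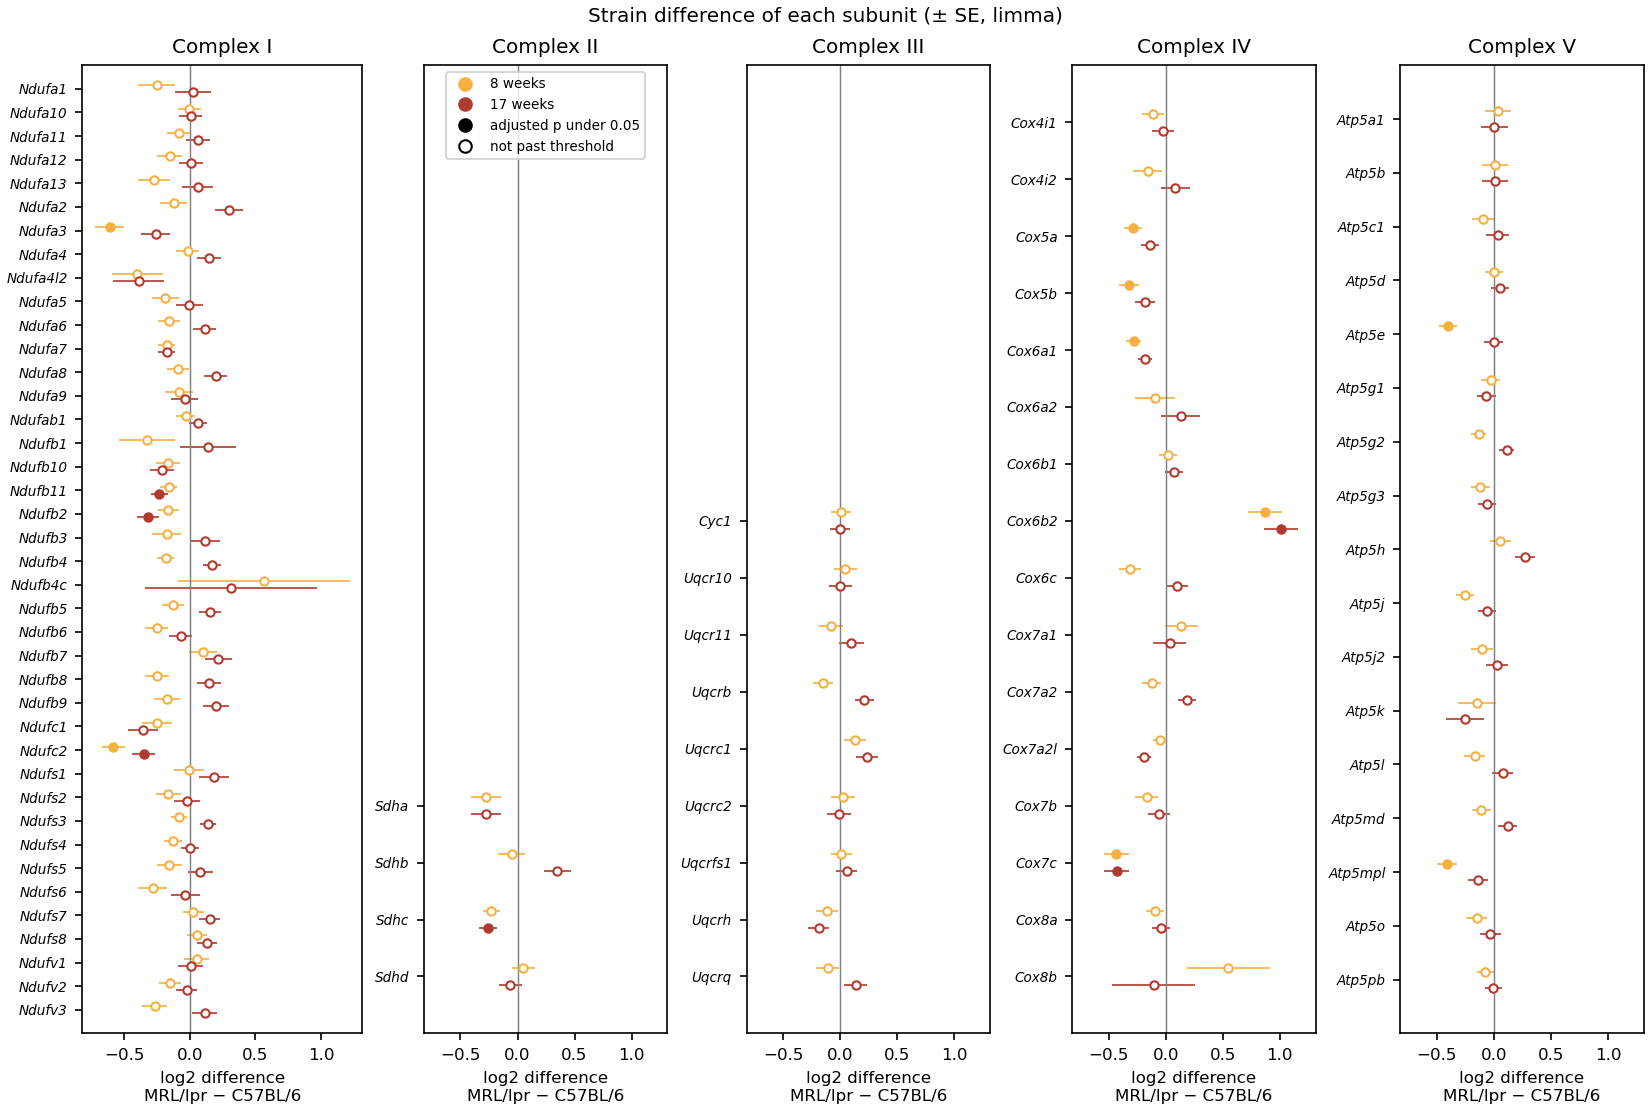
Log2 difference of MRL/lpr minus C57BL/6 kidneys for each of the 86 members (horizontal axes, ± SE from limma, all 12 libraries), by complex, at 8 weeks (orange) and 17 weeks (red), with filled points for an adjusted p under 0.05. Filled points lie to the left of 0 except for Cox6b2, at 0.87 and 1.01, and complex III has no filled point.

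Averaged over both ages, 13 members were lower and 1 was higher in MRL/lpr, against 24.0% of all genes passing (11.5% higher and 12.6% lower). They were 6 members of complex I (Ndufc2, Ndufa3, Ndufc1, Ndufb2, Ndufb11 and Ndufa7), Sdhc of complex II, Cox7c, Cox5b, Cox6a1 and Cox5a of complex IV, and Atp5mpl and Atp5e of complex V. All 6 in complex I were accessory subunits, which surround the catalytic core. At 8 weeks the median difference of the 30 accessory subunits was -0.17 and that of the 7 core subunits -0.0052, and at 17 weeks these medians were 0.042 and 0.13, or -0.055 and 0.018 without C57BL/6 17 weeks replicate 2. Whether the 2 groups of subunits differ was not tested. The averaged comparison without C57BL/6 17 weeks replicate 2 called 27 members lower and 2 higher, with 35.9% of all genes passing (20.6% higher and 15.3% lower).

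The separation of the libraries was counted without a test. At 8 weeks all 3 MRL/lpr libraries lay below all 3 C57BL/6 libraries for 38 members and above them for 1, against 21.3% and 19.2% of all genes. At 17 weeks they lay below for 12 members and above for 11, against 16.1% and 14.1% of all genes. Over both ages all 6 MRL/lpr libraries lay below all 6 C57BL/6 libraries for Ndufa3, Ndufc2 and Cox6a1 and above them for Cox6b2, against 6.23% and 4.82% of all genes. This held, without C57BL/6 17 weeks replicate 2, for 15 lower members and again 1 higher, against 7.53% and 8.51%.

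Of the complex I members, Ndufc2 (gene ID 68197, chromosome 7, 97400003 to 97407800), an accessory subunit of the membrane arm, was lower in MRL/lpr at both ages. It stood at 267, 242 and 234 FPKM in C57BL/6 at 8 weeks and at 226, 182 and 228 at 17 weeks. In MRL/lpr it stood at 168, 170 and 157 FPKM at 8 weeks and at 166, 166 and 162 at 17 weeks. Every MRL/lpr library was below every C57BL/6 library, including the one that stood apart. The log2 difference was -0.58 ± 0.09 (SE) at 8 weeks (adjusted p = 0.00145) and -0.35 ± 0.09 at 17 weeks (adjusted p = 0.0229). Without C57BL/6 17 weeks replicate 2 the difference at 17 weeks was -0.46 (adjusted p = 0.000508). Dropping replicate 1 or 3 of C57BL/6 or any replicate of MRL/lpr at 17 weeks ended the call at that age, with adjusted p between 0.0601 and 0.0802.

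Ndufa3 (gene ID 66091, chromosome 7, 3617347 to 3620165), another accessory subunit, stood at 377, 327 and 281 FPKM in C57BL/6 and at 203, 202 and 236 in MRL/lpr at 8 weeks. At 17 weeks it stood at 306, 281 and 321 FPKM in C57BL/6 and at 275, 250 and 233 in MRL/lpr. The strains did not overlap at either age or over all 12 libraries. The log2 difference was -0.61 ± 0.11 at 8 weeks (adjusted p = 0.0045), and it passed in every fit with 1 library left out. At 17 weeks it was -0.26 ± 0.11 (adjusted p = 0.151, or 0.0733 without C57BL/6 17 weeks replicate 2), and the difference between the ages, tested as the interaction, was 0.35 ± 0.16 (adjusted p = 0.484).

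Ndufb2, Ndufb11, Ndufc1 and Ndufa7 are further accessory subunits, with smaller differences. At 17 weeks Ndufb2 had a mean of 85.96 ± 6.65 FPKM in C57BL/6 and of 68.7 ± 2.36 in MRL/lpr, with a difference of -0.32 ± 0.08 (adjusted p = 0.0258). Ndufb11, an X-linked gene whose span overlaps that of Rbm10, had means of 266 ± 19.9 and 225 ± 6.28 FPKM at that age and a difference of -0.23 ± 0.06 (adjusted p = 0.0333). Both calls ended on dropping the same libraries as for Ndufc2, with adjusted p between 0.0563 and 0.0918 for Ndufb2. The Ndufb11 call also ended on dropping C57BL/6 8 weeks replicate 2 or MRL/lpr 8 weeks replicate 1, and its adjusted p then lay between 0.0521 and 0.102. Without C57BL/6 17 weeks replicate 2 the differences were -0.38 in Ndufb2 (adjusted p = 0.00493) and -0.30 in Ndufb11 (adjusted p = 0.00208). Ndufc1 and Ndufa7 passed in the average over both ages, at -0.30 ± 0.08 (adjusted p = 0.0183) and -0.18 ± 0.05 (adjusted p = 0.0173). With all 12 libraries the largest difference in complex I at 17 weeks by size was that of Ndufa4l2, -0.39 ± 0.19, which did not pass (adjusted p = 0.21). Over its curated mRNAs alone the sign turned, to 1.59 (adjusted p = 0.281). With C57BL/6 17 weeks replicate 2 left out, Ndufc1 had a larger one, -0.48 (adjusted p = 0.00363), and Ndufa4l2 was at -0.36 (adjusted p = 0.263).

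Complex II has 4 subunits, which did not move as 1 group. Sdha, the flavoprotein, stood at 350, 355 and 356 FPKM in C57BL/6 and 283, 310 and 285 in MRL/lpr at 8 weeks, and at 371, 254 and 380 against 252, 292 and 274 at 17 weeks. The ranges were apart at 8 weeks and overlapped at 17 weeks through C57BL/6 17 weeks replicate 2. With all libraries the difference at 17 weeks was -0.28 ± 0.13 (adjusted p = 0.194), and without that library it was -0.46 (adjusted p = 0.000745).

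Sdhc, a membrane anchor of complex II, stood at 355, 292 and 352 FPKM in C57BL/6 and 270, 271 and 291 in MRL/lpr at 17 weeks. The strains did not overlap, but the C57BL/6 library that stood apart came next to the highest MRL/lpr library. The difference was -0.26 ± 0.08 (adjusted p = 0.0447), and -0.35 (adjusted p = 0.00086) without that C57BL/6 library. Dropping any 1 of the other 11 libraries ended the call, with adjusted p between 0.0567 and 0.134. Curated mRNAs carry 16.9% of the Sdhc level and predicted ones the rest, and over curated mRNAs alone the difference at 17 weeks was -0.13 (adjusted p = 0.866). The gene span also overlaps a long noncoding RNA, Gm46172.

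The other anchor, Sdhd, had means at 17 weeks of 203 ± 30.9 FPKM in C57BL/6 and 193 ± 6.33 in MRL/lpr, with a difference of -0.06 ± 0.10 (adjusted p = 0.736), or -0.19 (adjusted p = 0.0397) without C57BL/6 17 weeks replicate 2. Sdhb, the iron-sulphur subunit, went the other way. It stood at 331, 233 and 343 FPKM in C57BL/6 and at 385, 375 and 379 in MRL/lpr at 17 weeks, so that all MRL/lpr libraries were the higher ones. Its difference was 0.35 ± 0.12 (adjusted p = 0.0777) with all libraries and 0.17 (adjusted p = 0.0312) without C57BL/6 17 weeks replicate 2. Without that library the 4 subunits thus passed as 3 lower and 1 higher in MRL/lpr at 17 weeks.

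In complex III, 0 of 9 members passed the strain test at either age or in the average. At an unadjusted p under 0.05, 0 passed at 8 weeks, 2 at 17 weeks and 2 in the average, against 25.7%, 29.5% and 35.6% of all genes. Uqcr10, a small subunit with the highest level in this complex, had means at 8 weeks of 620 ± 33.6 FPKM in C57BL/6 and 639 ± 16.1 in MRL/lpr, and at 17 weeks of 627 ± 72.2 and 627 ± 69.3. With all 12 libraries Uqcrc1, a core protein, had the largest difference at 17 weeks, 0.24 ± 0.09 (adjusted p = 0.125). With C57BL/6 17 weeks replicate 2 left out it was at 0.11 (adjusted p = 0.178), and Uqcrh, the hinge protein, passed at -0.27 (adjusted p = 0.046). In the average over both ages, both then passed, Uqcrc1 at 0.12 (adjusted p = 0.0323) and Uqcrh at -0.19 (adjusted p = 0.0277).

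Complex IV held the largest difference, in Cox6b2 (gene ID 333182, chromosome 7, 4751792 to 4753094). Cox6b2 is the testis isoform of a subunit whose common form is Cox6b1. It stood at 16.4, 16.2 and 12.03 FPKM in C57BL/6 at 8 weeks and at 16.1, 21.1 and 16.1 at 17 weeks. In MRL/lpr it stood at 30.5, 28.5 and 24.6 FPKM at 8 weeks and at 33.0, 43.0 and 34.4 at 17 weeks. Every MRL/lpr library was above every C57BL/6 library. On the fitted scale of FPKM + 1, Cox6b2 was 1.83-fold higher in MRL/lpr at 8 weeks, or 0.87 ± 0.15 in log2 (adjusted p = 0.00303). At 17 weeks it was 2.01-fold higher on that scale, or 1.01 ± 0.15 (adjusted p = 0.00126). Both calls passed in every alternative and in every fit with 1 library left out. Cox6b1 averaged between 983 and 1065 FPKM in the 4 groups, with differences of 0.02 ± 0.08 at 8 weeks (adjusted p = 0.907) and 0.07 ± 0.08 at 17 weeks (adjusted p = 0.6, or 0.024 and 0.848 without C57BL/6 17 weeks replicate 2), so Cox6b2 remained a small share of the pair in both strains.

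Cox7c, a small subunit made in all tissues, stood at 1124, 991 and 904 FPKM in C57BL/6 and 749, 724 and 750 in MRL/lpr at 8 weeks. At 17 weeks it stood at 852, 725 and 965 FPKM in C57BL/6 and at 668, 617 and 590 in MRL/lpr. Within each age the strains did not overlap. The differences were -0.44 ± 0.11 (adjusted p = 0.0231) and -0.43 ± 0.11 (adjusted p = 0.0233). At 8 weeks the call ended on dropping replicate 1 or 2 of C57BL/6 or any replicate of MRL/lpr of that age (adjusted p between 0.0612 and 0.0896). At 17 weeks it ended on dropping replicate 1 or 3 of C57BL/6 or replicate 2 or 3 of MRL/lpr of that age (adjusted p between 0.0606 and 0.0768). In the average over both ages Cox7c passed in all of these fits, at -0.43 ± 0.08 (adjusted p = 0.00206).

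Cox6a1 (gene ID 12861, chromosome 5, 115345652 to 115348958), whose promoter carries the NRF1 letters shown above, is the common form of a subunit with a muscle form, Cox6a2. It stood at 1063, 1026 and 970 FPKM in C57BL/6 at 8 weeks and at 939, 873 and 914 at 17 weeks. In MRL/lpr it stood at 857, 828 and 829 FPKM at 8 weeks and at 852, 775 and 777 at 17 weeks. It was the third member, after Ndufc2 and Ndufa3, with all 6 MRL/lpr libraries below all 6 C57BL/6 libraries. The difference in Cox6a1 was -0.28 ± 0.06 at 8 weeks (adjusted p = 0.0137) and -0.18 ± 0.06 at 17 weeks (adjusted p = 0.0807, or 0.0284 without C57BL/6 17 weeks replicate 2). Dropping replicate 1 or 2 of C57BL/6 or replicate 2 or 3 of MRL/lpr at 8 weeks ended the call, with adjusted p between 0.0507 and 0.0567.

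Cox5a and Cox5b, which bind close to the catalytic core of complex IV, differed by -0.28 ± 0.08 (adjusted p = 0.0414) and -0.32 ± 0.09 (adjusted p = 0.0299) at 8 weeks. The means in C57BL/6 and MRL/lpr were 488 ± 16.1 and 401 ± 5.78 FPKM for Cox5a, and 640 ± 45.9 and 510 ± 15.3 FPKM for Cox5b. The Cox5a call ended on dropping any 1 of the 6 libraries of 8 weeks or MRL/lpr 17 weeks replicate 2, with adjusted p between 0.0625 and 0.138. The Cox5b call ended on dropping replicate 1 or 2 of C57BL/6 or any replicate of MRL/lpr of that age, with adjusted p between 0.0596 and 0.11. In the average over both ages Cox5b passed in all fits with 1 library left out, and Cox5a in all but the one without C57BL/6 8 weeks replicate 2 (adjusted p = 0.0548).

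**Figure D3:**
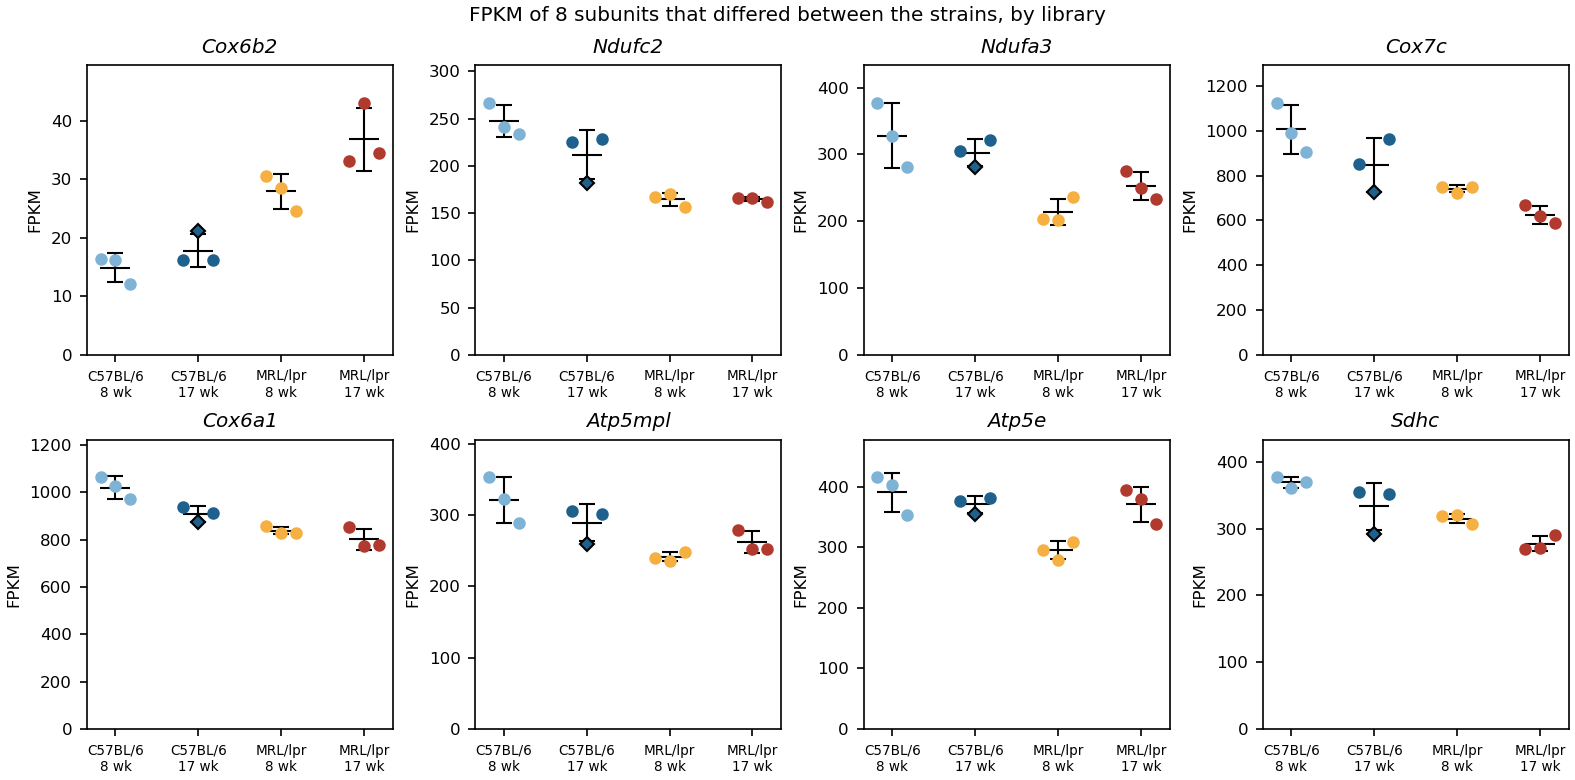
FPKM (vertical axes, starting at 0) of 8 members that passed the strain test, in each library by group, with the mean and SD of 3 libraries as bars and C57BL/6 17 weeks replicate 2 as an outlined diamond. Cox6b2 lies between 12.03 and 21.1 FPKM in C57BL/6 and between 24.6 and 43.0 in MRL/lpr, while Ndufc2, Ndufa3 and Cox6a1 are lower in all 6 MRL/lpr libraries.

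The tissue and condition isoforms of complex IV were low beside their common forms, and those other than Cox6b2 did not pass. Cox4i2, the hypoxia-inducible and lung form, averaged between 1.36 and 1.70 FPKM in the groups, where its common partner Cox4i1 averaged between 1408 and 1532. Cox6a2 averaged 1.71 ± 0.54 and 0.71 ± 0.19 FPKM in C57BL/6 at 8 and 17 weeks and 1.53 ± 0.46 and 0.87 ± 0.18 in MRL/lpr. Its difference between the ages was -0.65 ± 0.17 in C57BL/6 (adjusted p = 0.0934) and -0.42 ± 0.17 in MRL/lpr (adjusted p = 0.196). Cox7a1, a muscle form, averaged between 30.1 and 34.7 FPKM, and Cox7a2, the common form, between 351 and 398. Cox8b, a muscle and brown fat form, was between 3.98 and 21.7 FPKM over the libraries, beside Cox8a with group means between 896 and 984.5. The highest Cox8b value was in C57BL/6 17 weeks replicate 3, where the 5 muscle markers summed to 8.93 FPKM against at most 0.78 in the other libraries, and their part in it was not tested. The 5 adipocyte markers summed to between 27.9 and 86.4 FPKM, with the brown fat gene Ucp1 at 0.11 FPKM or less in all libraries. Cox8c had no row in the table.

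**Figure D4:**
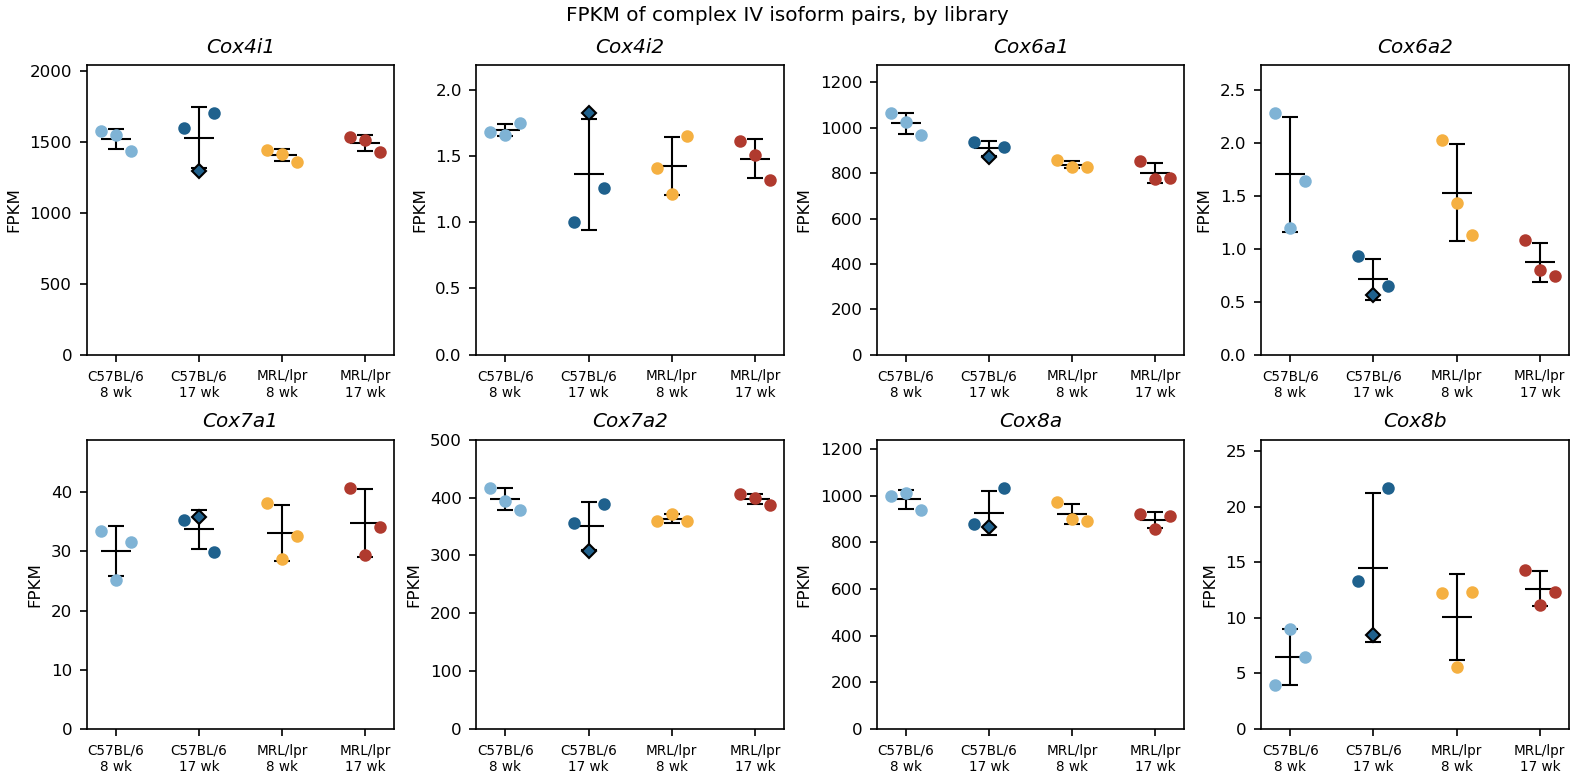
FPKM (vertical axes, starting at 0 and scaled to each gene) of 4 isoform pairs of complex IV in each library, by group, with the mean and SD of 3 libraries as bars and C57BL/6 17 weeks replicate 2 as an outlined diamond. The common forms Cox4i1, Cox6a1, Cox7a2 and Cox8a lie far above Cox4i2, Cox6a2, Cox7a1 and Cox8b in all 4 groups.

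Cox7a2l, a relative of Cox7a2 that helps to join complexes III and IV into supercomplexes and of which C57BL/6 mice are known to carry a shortened form, had means at 17 weeks of 176 ± 6.03 FPKM in C57BL/6 and 154 ± 6.95 in MRL/lpr. The difference was -0.19 ± 0.06 (adjusted p = 0.065), and without C57BL/6 17 weeks replicate 2 it was -0.21 (adjusted p = 0.0315). Ndufa4, named for complex I but now known as a complex IV subunit, averaged between 714 and 824 FPKM, with strain differences of -0.02 ± 0.09 and 0.15 ± 0.09 at 8 and 17 weeks (adjusted p = 0.936 and 0.309). The latter was 0.055 (adjusted p = 0.607) with C57BL/6 17 weeks replicate 2 left out. Its hypoxia-induced relative Ndufa4l2 had means at 8 weeks of 6.52 ± 1.45 FPKM in C57BL/6 and 4.79 ± 1.74 in MRL/lpr, with a difference of -0.40 ± 0.19 (adjusted p = 0.225). Curated mRNAs alone gave -1.07 (adjusted p = 0.529).

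In complex V the calls were at 8 weeks and in small subunits. Atp5e, the epsilon subunit of the F1 head, stood at 416, 403 and 354 FPKM in C57BL/6 and 296, 280 and 310 in MRL/lpr at 8 weeks. At 17 weeks the ranges overlapped, with 377, 356 and 381 FPKM in C57BL/6 and 395, 380 and 340 in MRL/lpr. The difference was -0.40 ± 0.08 at 8 weeks (adjusted p = 0.00745) and -0.0019 ± 0.08 at 17 weeks (adjusted p = 0.991, or -0.032 and 0.811 without C57BL/6 17 weeks replicate 2), and the interaction was 0.40 ± 0.11 (adjusted p = 0.271). Its call in the average over both ages held in 5 of the 12 fits with 1 library dropped. It ended on dropping C57BL/6 replicate 1 or 2 of 8 weeks, C57BL/6 replicate 1 or 3 of 17 weeks, MRL/lpr replicate 1 or 2 of 8 weeks, or MRL/lpr replicate 3 of 17 weeks (adjusted p between 0.0504 and 0.066).

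Atp5mpl, a small protein of the membrane part, stood at 353, 323 and 289 FPKM in C57BL/6 and 240, 236 and 249 in MRL/lpr at 8 weeks. At 17 weeks it stood at 306, 259 and 302 FPKM in C57BL/6 and at 280, 253 and 253 in MRL/lpr, and the ranges overlapped. The difference was -0.41 ± 0.09 at 8 weeks (adjusted p = 0.0117) and -0.14 ± 0.09 at 17 weeks (adjusted p = 0.336), or -0.22 (adjusted p = 0.0715) without C57BL/6 17 weeks replicate 2. The catalytic Atp5b had means at 8 weeks of 1838 ± 64.3 FPKM in C57BL/6 and 1855 ± 10.3 in MRL/lpr (adjusted p = 0.962). At 17 weeks Atp5b stood at 1879, 1347 and 1919 FPKM in C57BL/6 and at 1712, 1694 and 1702 in MRL/lpr, so that the sign of its difference turned with 1 library: 0.0079 ± 0.11 with all (adjusted p = 0.973) and -0.16 (adjusted p = 0.0408) without C57BL/6 17 weeks replicate 2. Of the 3 c-ring genes, Atp5g1, Atp5g2 and Atp5g3, 0 passed at either age. With all 12 libraries Atp5h, of the peripheral stalk, had the largest difference of complex V at 17 weeks, 0.27 ± 0.09 (adjusted p = 0.0611), with 545, 430 and 530 FPKM in C57BL/6 and 639, 595 and 579 in MRL/lpr. With C57BL/6 17 weeks replicate 2 left out it was at 0.17 (adjusted p = 0.0625), and the difference of Atp5k, a small subunit of the membrane part, was the largest, at -0.39 (adjusted p = 0.0985).

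Between 8 and 17 weeks, 0 of 86 members passed in either strain. In C57BL/6, 1.49% of all genes passed, and 23 members had an unadjusted p under 0.05, against 19.5% of all genes. The median of the members was -0.14, against 0.026 over all genes, and 76 members were below 0. Without C57BL/6 17 weeks replicate 2 the members' median was -0.045, against -0.021 over all genes. There were again 0 calls, with 10 members at an unadjusted p under 0.05 (20.9% of all genes) and 2.9% of all genes passing. Ndufb4, an accessory subunit of complex I, had the smallest adjusted p of the members, with 444 ± 28.0 FPKM at 8 weeks and 365 ± 21.1 at 17 weeks, a difference of -0.28 ± 0.07 (adjusted p = 0.0666).

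In MRL/lpr, 2.98% of all genes passed with age, and 15 members had an unadjusted p under 0.05 (21.4% of all genes). The members' median was 0.029, against 0.038 over all genes. Without C57BL/6 17 weeks replicate 2, which is not in this comparison and enters only the spread, 6 members were higher and 8 lower at 17 weeks, with 18.2% of all genes passing (12.2% higher and 6.06% lower). The higher ones were Ndufa2, Ndufa6 and Ndufb8 of complex I, Sdhb, Atp5e and Atp5g2. The lower ones were Ndufb2 and Ndufc1 of complex I, Sdhc and Sdhd, Cyc1, Uqcrfs1 and Uqcrc2 of complex III, and Atp5g1. Atp5e, with 295 ± 14.7 FPKM at 8 weeks and 371 ± 28.6 at 17 weeks, differed by 0.33 ± 0.08 (adjusted p = 0.0551, or 0.0152 without that library). Sdhd went from 229 ± 11.5 to 193 ± 6.33 FPKM, a difference of -0.25 ± 0.10 (adjusted p = 0.189, or 0.0135 without that library). The 4 complex II genes were split here as well, with Sdhb at 329 ± 8.43 and 380 ± 5.13 FPKM.

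The interaction of strain and age, which tests whether the strain difference changed between the ages, was passed by 0 members and by 0.0541% of all genes. At an unadjusted p under 0.05 it was passed by 16 members, against 10.3% of all genes. The members' median interaction was 0.13, against 0.015 over all genes. Without C57BL/6 17 weeks replicate 2 it was 0.050, against 0.066 over all genes. In that fit 0 members and 2.4% of all genes passed, and 17 members had an unadjusted p under 0.05 (21.5% of all genes). The shift of the members' median from -0.13 at 8 weeks to 0.0088 at 17 weeks is thus not shown to be a change in the strain difference.

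Other measured features are set beside these differences, and not all of them went the same way. The median length of the members' mRNAs was 729 bases over the 84 members with a known length, and at 8 weeks the members at or below it had a median strain difference of -0.16 and the longer ones of -0.099. Over all genes the medians were -0.084 for the 361 at or below that length and -0.011 for the longer ones. At 17 weeks the medians of the shorter and longer members were 0.030 and 0.0048, and those of all genes 0.055 and -0.0054. Some cell type markers differed between the strains: at 8 weeks 3 of 6 collecting duct markers were lower in MRL/lpr, with sums of 423 to 506 FPKM in C57BL/6 and 325 to 377 in MRL/lpr. At 17 weeks 5 of 6 endothelial markers were lower, with sums of 254 to 339 and 149 to 206 FPKM, and at 8 weeks 0 of 6 passed, with sums of 221 to 270 and 148 to 207. Of the 5 tubular injury markers, Havcr1 was higher in MRL/lpr at both ages: it stood between 0.37 and 0.47 FPKM in C57BL/6 and between 106 and 157 in MRL/lpr at 8 weeks. At the later age its values were 0.33, 37.4 and 0.39 FPKM in C57BL/6 and 161, 86.1 and 35.8 in MRL/lpr, and these ranges overlap through C57BL/6 17 weeks replicate 2. Lcn2, another of the 5 injury markers, overlapped between the strains at both ages. At 8 weeks it stood at 1.26, 4.41 and 5.55 FPKM in C57BL/6 and at 2.32, 1.22 and 3.77 in MRL/lpr. At 17 weeks it stood at 1.83, 180 and 3.04 FPKM in C57BL/6 and at 10.75, 9.27 and 5.1 in MRL/lpr. The injury sums were 1161 to 1345 and 1628 to 1748 FPKM at 8 weeks, and 1322 to 4992 and 1354 to 1999 at 17 weeks. The macrophage sums were 82.1 to 86.8 FPKM in C57BL/6 and 93.2 to 207 in MRL/lpr at 8 weeks, and 467 to 537 in MRL/lpr at 17 weeks. Of 6 T cell markers, 1 was higher in MRL/lpr at 8 weeks and 3 at 17 weeks, with sums of 3.64 to 4.61 and 21.6 to 30.4 FPKM at 8 weeks and of 7.21 to 27.4 and 37.8 to 53.2 at 17 weeks. The 6 B and plasma cell markers summed to 6.39 to 8.30 and 5.32 to 24.1 FPKM at 8 weeks and to 35.4 to 117 and 21.5 to 270 at 17 weeks, and 0 of the 4 tested passed at either age. Of the 8 proximal tubule markers, 0 passed at 8 weeks and 1 was higher at 17 weeks, with sums of 3939 to 4305 FPKM in C57BL/6 and 4155 to 4883 in MRL/lpr at 8 weeks. At 17 weeks the proximal tubule sums were 2633 (replicate 2) to 4208 FPKM in C57BL/6 and 3129 to 3859 in MRL/lpr, and the median difference of these markers was 0.078, or -0.15 (1 higher and 1 lower) without C57BL/6 17 weeks replicate 2. The sums of the 5 thick ascending limb and distal tubule markers overlapped between the strains. They were 2989 to 3747 FPKM in C57BL/6 and 2675 to 3244 in MRL/lpr at 8 weeks. At 17 weeks they were 3068 to 3598 and 3009 to 3490 FPKM. Of all genes, 12.8% passed at 8 weeks and 15.1% at 17 weeks, or 27.2% at 17 weeks without C57BL/6 17 weeks replicate 2. The part of mRNA length and of the markers in the member results was not tested.

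**Figure D5:**
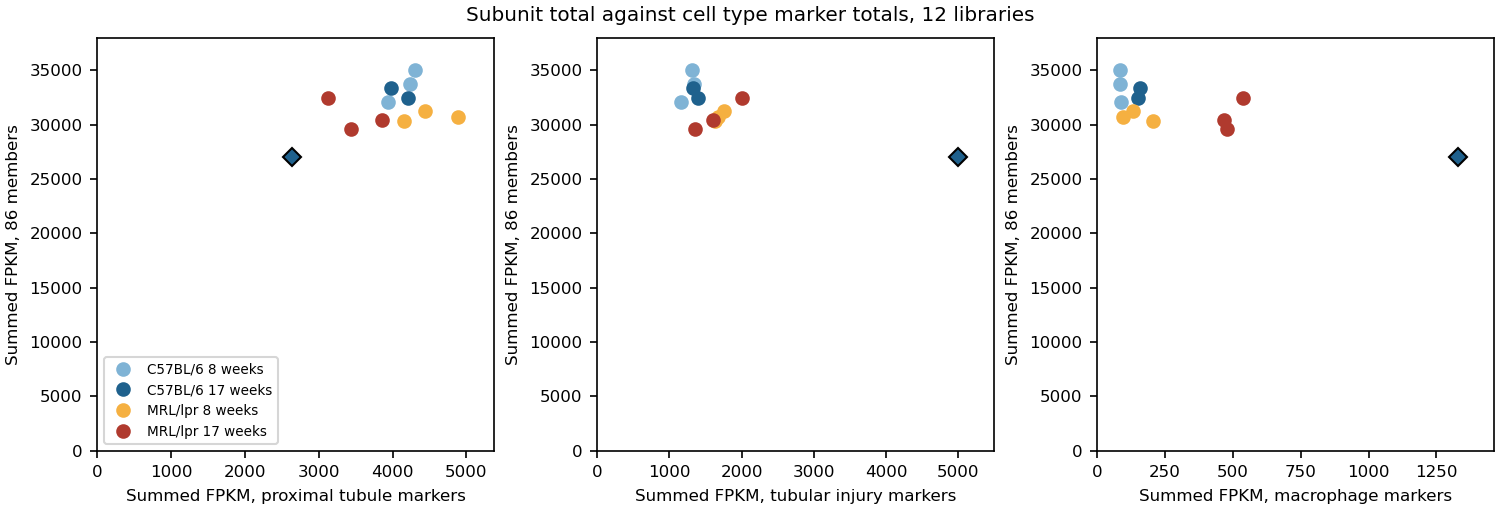
Summed FPKM of the 86 members (vertical axes, starting at 0) against the summed FPKM of the proximal tubule, tubular injury and macrophage markers (horizontal axes, starting at 0), with 1 point per library and C57BL/6 17 weeks replicate 2 as an outlined diamond. The diamond has the lowest member sum, 27050 FPKM, the lowest proximal tubule sum, 2633, and the highest injury and macrophage sums, 4992 and 1328.

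Other genes of the pathway were followed in lists, whose counts are read against the 12.8% of all genes that passed at 8 weeks and the 15.1% at 17 weeks. Among 17 complex I assembly factors, 3 were lower and 0 higher in MRL/lpr at 8 weeks, and 1 was lower at 17 weeks. Ndufaf2 differed by -0.53 ± 0.06 (adjusted p = 0.000168) at 8 weeks and by -0.26 ± 0.06 (adjusted p = 0.0151) at 17 weeks. The median of the list was -0.026 at 8 weeks, close to that of all genes, -0.012. Ndufaf7, which methylates a core subunit, and Foxred1 were the other 2, at -0.34 ± 0.07 (adjusted p = 0.0103) and -0.22 ± 0.05 (adjusted p = 0.0225).

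Among 34 assembly factors of complexes II to V, 1 was higher and 4 lower at 8 weeks, and 4 were higher and 4 lower at 17 weeks. Cox18, which inserts a mitochondrially made subunit of complex IV into the membrane, was higher by 1.05 ± 0.07 at 8 weeks (adjusted p = 4.2e-06) and by 1.18 ± 0.07 at 17 weeks (adjusted p = 1.9e-06). Lyrm7, a complex III factor, was lower by a log2 difference of -0.78 ± 0.12 (adjusted p = 0.0015) and -0.71 ± 0.12 (adjusted p = 0.00274). Cox11, which delivers copper to complex IV, differed by -0.62 ± 0.10 (adjusted p = 0.00171) at 8 weeks, and Sdhaf1, a complex II factor, by 0.55 ± 0.09 (adjusted p = 0.00237) at 17 weeks.

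Of 21 genes for electron carriers and electron entry, 1 was higher and 2 were lower at 8 weeks, and 3 were higher and 0 lower at 17 weeks. The genes of ubiquinone synthesis among them were split at 8 weeks, with Coq5 at 0.38 ± 0.06 (adjusted p = 0.00255) and Coq3 and Coq9 at -0.25 ± 0.06 (adjusted p = 0.0121) and -0.45 ± 0.13 (adjusted p = 0.0405). In C57BL/6, where 1.49% of all genes passed with age, Cycs, which encodes cytochrome c, was lower at 17 than at 8 weeks, by -0.38 ± 0.07 (adjusted p = 0.0357), as was Gpd2, the mitochondrial glycerol phosphate dehydrogenase, by -0.62 ± 0.12 (adjusted p = 0.037).

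Of 21 genes of the tricarboxylic acid cycle and its entry, 0 were higher and 2 lower at 8 weeks, and 2 were higher and 2 lower at 17 weeks. The 2 lower genes at 8 weeks were pyruvate dehydrogenase kinases, which inhibit the entry of pyruvate: Pdk1 at -1.22 ± 0.10 (adjusted p = 2.21e-05) and Pdk4 at -1.60 ± 0.24 (adjusted p = 0.00143). At 17 weeks these differed by -0.83 ± 0.10 (adjusted p = 0.00037) and -1.25 ± 0.24 (adjusted p = 0.00607). Of 16 genes of fatty acid oxidation, 1 passed at each age, Eci1, at 0.53 ± 0.10 (adjusted p = 0.00549) and 0.51 ± 0.10 (adjusted p = 0.00654). Of 18 regulators of mitochondrial biogenesis, Tfb1m was higher at 8 weeks, by 0.30 ± 0.09 (adjusted p = 0.0498), and Tfb1m and Tfam, which act on mitochondrial rRNA and on the mitochondrial genome, were higher at 17 weeks, by 0.39 ± 0.09 (adjusted p = 0.014) and 0.24 ± 0.07 (adjusted p = 0.0363). The adjusted p of Tfam without C57BL/6 17 weeks replicate 2 was 0.0546. With that library left out, the counts at 17 weeks were 3 higher and 4 lower for the electron carriers, 2 and 6 for the tricarboxylic acid cycle, 2 and 1 for the regulators, and 0 and 2 for the complex I assembly factors, against 27.2% of all genes.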

How the data were processed

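Kidney mRNA was sequenced in 12 libraries. The deposited table gives FPKM, a unit read from the values, for 72806 RefSeq mRNAs (31263 curated, 41543 predicted). RSEM 1.3.1, Bowtie2, DESeq2 1.34.0 and GRCm38.p6 are named in the submitters' processing notes, with no role given. Columns headed LN were read as MRL/lpr, because those headed C match C57BL/6. In each library the depth and fragment length were chosen for the highest share of whole reads at low levels. Of these values, 45.6% to 55.0% were then whole to within 0.1, where a setting fixed beforehand gives 20% by chance. The level by chance of the highest share was not worked out. Counts were therefore not recovered, and depth and counting error are unknown. FPKM were summed per gene. Genes reaching 1 FPKM in 3 libraries entered limma 3.58.1 (R 4.3.3) as log2(FPKM + 1), a scale that understates changes of low genes, in 1 model of the 4 group means with trended, robust moderation. P values are two-sided and Benjamini-Hochberg adjusted over all genes tested, with a threshold of 0.05. The fit was tested on simulated data with independent normal noise, and the outcome is not given here. These data held no library that stood apart. The strain shifts set in them were larger than most member differences. Neither a library that stands apart nor small differences were thus covered. The name rule matched 108 genes, of which 19 are pseudogenes and 2 (Cox7b2 and Cox8c) had no row. Positions and promoters are RefSeq on GRCm38.p6. Python 3.11.15 and pandas 2.3.3 made the tables.

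Named were all members past the threshold (up to 8 higher and 8 lower per comparison), the most abundant member of each complex and the one most different at 17 weeks, isoform groups, members next to the level minimum, and up to 3 genes per pathway list and comparison. Members and lists were chosen with earlier results of these data known. Members named for their values without C57BL/6 17 weeks replicate 2, for library order or for position were chosen after their values were seen. Alternatives were other pseudocounts, filters and scalings, library weights, fits of only the groups compared, curated mRNAs alone, a replicate block, and dropping each library in turn. Values per complex and per list without C57BL/6 17 weeks replicate 2 were added after seeing the data.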

Additional observations from a re-analysis of the deposited data

How the results depend on the processing

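The number of members past the threshold rose with library weights in all 6 comparisons and without C57BL/6 17 weeks replicate 2 in 4, and the share of all genes that passed, given here in parentheses, rose in all 6 under both. With library weights 27 members passed at 8 weeks (26.7%), 28 at 17 weeks (39.8%), 37 in the average (43.6%), 9 for age in C57BL/6 (19.4%), 15 for age in MRL/lpr (18.4%) and 2 for the interaction (6.9%). Fitting only the groups compared gave 20 (20.4%), 1 (6.58%) and 5 (8.65%) for 8 weeks, 17 weeks and age in MRL/lpr. Median-of-ratios scaling gave 5 at 8 weeks (13.4%) and 1 at 17 weeks (16.04%), and a filter of 5 FPKM gave 1 for age in MRL/lpr (4.29%). Leaving out 1 library gave 5 to 23 calls at 8 weeks (8.32% to 23.3%), 1 to 18 at 17 weeks (9.84% to 27.2%), 12 to 29 in the average (18.9% to 35.9%), 0 for age in C57BL/6 (0.116% to 2.9%), 0 to 14 for age in MRL/lpr (0.575% to 18.2%) and 0 for the interaction (0.00774% to 2.4%). Where the count varied, the highest was without C57BL/6 17 weeks replicate 2. At 8 weeks and for age in MRL/lpr that library enters only through the shared estimate of the spread. At 17 weeks and in the average the cause was not tested. The median difference of the members at 17 weeks, 0.009, turned sign with upper-quartile scaling (-0.01) and library weights (-0.081), and ran from -0.075 to 0.069 with 1 library left out. For age in MRL/lpr it ran from -0.024 to 0.061, and in the other comparisons it kept its sign.

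With the replicate number as a block, 8 members passed at 8 weeks (10.97% of all genes), 4 at 17 weeks (12.1%), 15 in the average (21.4%) and 0 in the others. Whether a shared number pairs samples is not stated. Of 18 pairs that share a number, 3 had a correlation over 0.1, and the median r was -0.021, or 0.028 for the other pairs. Over all pairs r ran from -0.468 (a shared number) to 0.445 (different numbers). With so few libraries in a group and so wide a spread, these values cannot decide whether the numbers pair samples.

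Of 29 member calls over the 6 comparisons, 15 passed in all alternatives and 18 in all fits with 1 library left out. Of 2233 alternatives for 103 pairs of a member and a comparison (those that passed with or without C57BL/6 17 weeks replicate 2, and those named for other reasons), 1982 kept direction and side of the threshold, 140 newly passed, 91 no longer passed and 20 changed sign. The sign changes were Ndufa4l2 at 17 weeks over curated mRNAs (1.588), Ndufa4 at 8 weeks and Atp5e at 17 weeks with median-of-ratios scaling (0.001 and 0.006), Sdhc at 8 weeks over curated mRNAs (0.105), Atp5b at 17 weeks with upper-quartile scaling (-0.012), with library weights (-0.158) and without C57BL/6 17 weeks replicate 2 (-0.157), Ndufa9 at 17 weeks without C57BL/6 17 weeks replicate 1 (0.022) or 3 (0.045), Sdhd at 17 weeks without C57BL/6 17 weeks replicate 1 (0.019), and Atp5g1 and Sdhc for age in MRL/lpr over curated mRNAs (0.426 and 0.243). The rest were in fits with 1 library left out. In these the difference at 8 weeks ran from -0.016 to 0.03 in Atp5b, from -0.054 to 0.01 in Atp5g1, from -0.016 to 0.068 in Cox6b1 and from -0.052 to 0.024 in Ndufa4. At 17 weeks it ran from -0.047 to 0.061 in Atp5e, from -0.157 to 0.098 in Atp5b, from -0.189 to 0.045 in Ndufa9 and from -0.192 to 0.019 in Sdhd. With 3 libraries in a group and no counts, small differences cannot be told from the spread.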

Other observations

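Atp5g1, a c-ring gene of the ATP synthase on chromosome 11, differed little between the strains in its total but widely in its curated mRNAs. Its total was 485, 469 and 451 FPKM in C57BL/6 and 469, 474 and 436 in MRL/lpr at 8 weeks, which differed by -0.03 ± 0.08 in log2 (adjusted p = 0.878, limma). Its curated mRNAs, which carry 9.38% of the total, stood at 81.1, 55.9 and 91.5 FPKM in C57BL/6 and at 9.98, 13.7 and 11.1 in MRL/lpr. They differed by -2.60 at 8 weeks (adjusted p = 1.2e-05) and -1.87 at 17 weeks (adjusted p = 0.000124). The predicted mRNAs of this gene make up the rest. The reference is that of C57BL/6J, and whether the split of fragments between mRNAs of 1 gene depends on it was not tested.

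Of the 86 members, 9 lie on chromosome 7, and 3 of these, Cox6b2, Ndufa3 and Ndufc2, are among the 4 whose 6 MRL/lpr libraries all lay to one side of the 6 C57BL/6 libraries. The shares of all genes with such a separation were 6.23% lower and 4.82% higher, and they were not counted for chromosome 7 alone. Ndufa3 and Cox6b2 start 1.134 Mb apart, Ndufa3 being lower and Cox6b2 higher in MRL/lpr. This was seen after the values and has no test. Predicted mRNAs carried most of the level of 6 members: Ndufs1, Cyc1, Atp5g1, Sdhc, Ndufb5 and Ndufa4l2. The spans of 28 members overlap that of another annotated gene, and strandedness of the library kit is not given in the sources used here.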
